A study of Homo sapiens with 23 samples.

Results

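The genes described here are the small nucleolar RNA (snoRNA) genes and the small Cajal body-specific RNA (scaRNA) genes, taken as the genes whose symbols start with SNORA, SNORD or SCARNA. The count table of the first 17 libraries held 553 of them among 61806 genes, of which 214 were SNORA, 314 SNORD and 25 SCARNA genes. The table of the 6 deep libraries held 568 among 42901 genes (182 SNORA, 357 SNORD and 29 SCARNA), and 456 symbols stood in both tables. RNA-sequencing was performed on A549 cells, an established line of lung carcinoma epithelial cells that the labels give as wild type in every group, after depletion of THUMPD3, which forms the modified base N2-methylguanosine in tRNAs. The first libraries were siD3 #3 (siRNA, 3 libraries, harvested on day 5) with siControl (2 libraries analysed here), and shD3 #1 and shD3 #4 (shRNAs from a Tet-inducible vector, 3 libraries each, harvested on day 6) with sh1Control and sh4Control (3 libraries each). The deep libraries were 3 of shD3 #1 and 3 of sh1Control, sequenced for a splicing analysis. The paper induced the shRNAs with doxycycline and describes its comparisons as treated against untreated samples. The titles of the sh1Control and sh4Control libraries do not mention doxycycline, so it may go together with the knockdown. The labels call the replicates biological, and whether a shRNA line was 1 clone is not given in the sources used here.

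A snoRNA works as the guide of a protein particle that modifies other RNAs at the site to which the guide pairs. C/D box snoRNAs (SNORD) direct 2'-O-methylation through the methyltransferase fibrillarin, and H/ACA box snoRNAs (SNORA) direct pseudouridylation through dyskerin, in both cases mainly of ribosomal RNA. The scaRNAs guide the same reactions on spliceosomal snRNAs in Cajal bodies and can carry boxes of either kind or of both. A small number of snoRNAs, such as U3 (SNORD3A), are needed to cut the pre-rRNA instead. Most human snoRNAs are made from introns of a host gene, so that host transcription and intron processing set their supply.

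The following sequences are those of members named with values below. Some of these members had enough counts to be tested only in the group where they were high, as stated there. They are the annotated GENCODE 44 transcripts on GRCh38, written 5′ to 3′ as DNA letters. In the C/D genes the capitals mark TGATGA in the first 20 bases (the C box) and CTGA in the last 20 bases (the D box), where these letters were found. For the H/ACA genes they mark ACA in the last 6 bases, and in scaRNAs any of the 3. SNORD114-20 (chr14:100981004-100981075, + strand) and SNORD114-21 (chr14:100981975-100982046, + strand) lie in introns of the non-coding gene MEG8. SNORD30 (chr11:62853663-62853732, - strand) lies in SNHG1 and SNORD88B (chr19:50799032-50799122, - strand) in C19orf48P.
SNORD114-20: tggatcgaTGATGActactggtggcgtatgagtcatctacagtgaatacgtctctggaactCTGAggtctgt
SNORD114-21: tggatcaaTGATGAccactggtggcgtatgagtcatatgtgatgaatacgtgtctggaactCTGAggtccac
SNORD30: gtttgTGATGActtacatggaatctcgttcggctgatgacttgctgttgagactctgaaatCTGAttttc
SNORD88B: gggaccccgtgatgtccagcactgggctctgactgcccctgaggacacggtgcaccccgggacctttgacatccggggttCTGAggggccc

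Of the H/ACA genes, SNORA22 (chr7:65755526-65755659, + strand) and SNORA22C (chr7:65065999-65066132, + strand) are copies that share 132 of 134 positions (98.5%). SNORA47 (chr5:77080434-77080571, - strand) lies in ZBED3, SNORA49 (chr12:132031224-132031359, + strand) in EP400, SNORA64 (chr16:1962973-1963106, - strand) in RPS2 and SNORA73B (chr1:28508559-28508762, + strand) in RCC1.
SNORA22: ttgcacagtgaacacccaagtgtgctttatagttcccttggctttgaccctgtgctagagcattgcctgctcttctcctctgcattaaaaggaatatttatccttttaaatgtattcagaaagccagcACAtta
SNORA22C: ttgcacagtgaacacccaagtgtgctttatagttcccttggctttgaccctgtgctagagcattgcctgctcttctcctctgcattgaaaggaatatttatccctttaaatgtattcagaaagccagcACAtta
SNORA47: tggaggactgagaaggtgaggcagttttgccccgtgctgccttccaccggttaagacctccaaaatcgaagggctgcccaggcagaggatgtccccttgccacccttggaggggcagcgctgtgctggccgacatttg
SNORA49: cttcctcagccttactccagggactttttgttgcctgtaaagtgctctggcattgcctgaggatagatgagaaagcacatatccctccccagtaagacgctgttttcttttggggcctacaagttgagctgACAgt
SNORA64: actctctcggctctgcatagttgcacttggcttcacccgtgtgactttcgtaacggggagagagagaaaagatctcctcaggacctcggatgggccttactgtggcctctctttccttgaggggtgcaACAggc
SNORA73B: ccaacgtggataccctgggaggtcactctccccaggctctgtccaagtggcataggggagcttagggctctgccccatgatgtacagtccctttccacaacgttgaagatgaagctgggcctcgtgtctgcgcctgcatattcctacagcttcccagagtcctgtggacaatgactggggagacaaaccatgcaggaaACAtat

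Of the scaRNA genes, SCARNA5 (chr2:233275727-233276002, + strand) and SCARNA6 (chr2:233288676-233288940, + strand) lie in the same host, ATG16L1, and SCARNA12 (chr12:6967337-6967606, - strand) and SCARNA21 (chr17:7906122-7906260, + strand) in PHB2 and CHD3.
SCARNA5: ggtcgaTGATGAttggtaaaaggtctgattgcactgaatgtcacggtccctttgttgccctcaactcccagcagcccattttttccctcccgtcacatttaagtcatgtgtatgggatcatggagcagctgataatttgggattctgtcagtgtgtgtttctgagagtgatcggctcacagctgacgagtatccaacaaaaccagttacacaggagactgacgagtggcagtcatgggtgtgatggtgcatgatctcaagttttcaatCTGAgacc
SCARNA6: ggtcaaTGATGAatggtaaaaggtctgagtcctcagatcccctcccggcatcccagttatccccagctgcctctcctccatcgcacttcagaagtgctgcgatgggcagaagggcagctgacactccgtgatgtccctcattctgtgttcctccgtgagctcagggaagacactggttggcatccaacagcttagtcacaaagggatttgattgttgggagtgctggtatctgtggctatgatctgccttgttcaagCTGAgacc
SCARNA12: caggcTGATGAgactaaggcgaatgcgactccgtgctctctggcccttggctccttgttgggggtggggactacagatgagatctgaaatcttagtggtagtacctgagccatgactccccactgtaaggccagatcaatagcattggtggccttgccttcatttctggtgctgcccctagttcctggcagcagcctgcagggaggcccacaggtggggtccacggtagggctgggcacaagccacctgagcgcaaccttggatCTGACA
SCARNA21: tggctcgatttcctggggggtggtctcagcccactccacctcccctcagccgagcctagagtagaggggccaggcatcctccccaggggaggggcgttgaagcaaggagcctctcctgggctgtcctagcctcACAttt

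The box letters followed the symbols. On the gene strand alone, TGATGA near the 5′ end was found in 65.3% of the 314 SNORD and 0.467% of the 214 SNORA sequences, and CTGA near the 3′ end in 90.1% and 7.94%. ACA near the 3′ end was found in 81.8% of the SNORA and 5.10% of the SNORD sequences. Of the 25 SCARNA sequences, 72.0% held ACA and 5 held both C/D letters. SNORA47 held no ACA in its last 6 bases and SNORD88B no TGATGA in its first 20.

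The first libraries held 9854294 to 22101059 counts each and the deep ones 27285889 to 59974740. THUMPD3 mRNA was left at 51.5% of its control in shD3 #1, 31.3% in shD3 #4, 17.2% in siD3 #3 and 49.9% in deep shD3 #1. No library overlapped its controls, with exact two-sided permutation p values of 0.1, 0.1, 0.2 and 0.1. With 3 libraries in each group, 0.1 is the smallest p that this test can give. The epithelial markers KRT8 and KRT18 were at 1010 to 3470 CPM, counts per 1 000 000 after TMM scaling, in every library, while the alveolar type II markers SFTPC and SFTPB did not exceed 0.341 CPM. Other markers moved with shD3 #1. In the first and deep libraries the log2 fold change of KRT19 was 1.96 and 1.72, of EPCAM 1.01 and 1.90, of the adhesion gene CDH1 -1.38 and -1.38, and of the collagen gene COL1A1 0.74 and 1.73, all called, and KRT8 rose in the deep libraries (0.68). In siD3 #3 KRT19 rose (1.42), and in shD3 #4 the 6 tested markers were not called. The part of this in the snoRNA results was not tested.

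In the first libraries 327 of the 553 members had no count in any library, and in the deep ones 142 of 568. Members at 0 in the first table mostly shared their position with another gene. Of the 232 members that overlap an exon of another gene on the same strand, 209 (90.1%) were at 0 throughout, against 118 of the other 321 (36.8%). SCARNA12, for example, overlaps an exon of PHB2 and had no count in the first libraries, but 4963 counts in the deep ones. STAR's gene counting, which the authors used, leaves out reads that fall on exons of more than 1 gene. A count of 0 at such a member therefore does not show that the RNA was absent. Total RNA libraries also hold precursor and host intron reads. In bulk samples fewer molecules of a snoRNA, a poorer recovery of short RNA and a shift in cell make-up cannot be told apart.

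Per length, SNORD3A had the highest level of any member in the first controls, at 117 to 1010 CPM per kilobase over 8 libraries (mean 349). SNORD3A is the U3 snoRNA, and its annotated gene in this table is 699 bases long. SNORA73B, an H/ACA RNA that acts in pre-rRNA cleavage, followed with 109 to 668 CPM per kilobase (mean 300). The next were SNORD17 (mean 183), SCARNA7 (172), SCARNA21 (114), SCARNA5 (101), SNORA12 (88.1), SNORD15B (47.5) and SNORA53 (29.1). Each neighbouring pair in this order had overlapping ranges. For the genes tested in the deep controls the order differed, with SCARNA2 first at 282 to 307 CPM per kilobase, then SCARNA10 at 158 to 180 and SNORA104 at 162 to 168. SCARNA10, SCARNA12 and SCARNA17 are all rich in the deep table and nearly or wholly uncounted in the first.

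Members were tested when at least 10 counts stood in at least 3 libraries of a comparison. This left 59 members in shD3 #1, 61 in shD3 #4, 52 in siD3 #3 and 254 in the deep libraries. Just inside this limit, with 10 counts in exactly 3 libraries, were 12, 12, 3 and 52 members, and just outside, with exactly 2, were 10, 6, 10 and 32. SNORA49 was outside it in shD3 #1, with 5, 4 and 4 counts in the controls and 6, 3 and 47 in the knockdown. Members that reached 10 counts in only 1 of the 2 groups, and so could pass only by differing, numbered 4, 7, 1 and 42. A gene was called when its adjusted p from edgeR's quasi-likelihood test was under 0.05 over all genes tested and its fold change was at least 1.5 in either direction.

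Replicates of these genes spread widely. The coefficient of variation between libraries of a group had a median over members of 26.2% in sh1Control and 35.7% in shD3 #1, where over all genes tested it was 6.67% and 9.81%. In the other comparisons the members' medians were 19.3% and 26.7% (sh4Control and shD3 #4), 17.2% and 20.8% (siControl and siD3 #3), and 19.1% and 29.3% (deep). Members are also low, with a median control level of 0.673 to 1.44 CPM over the 4 comparisons against 10.9 to 14.4 CPM over all genes tested.

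**Figure D1:**
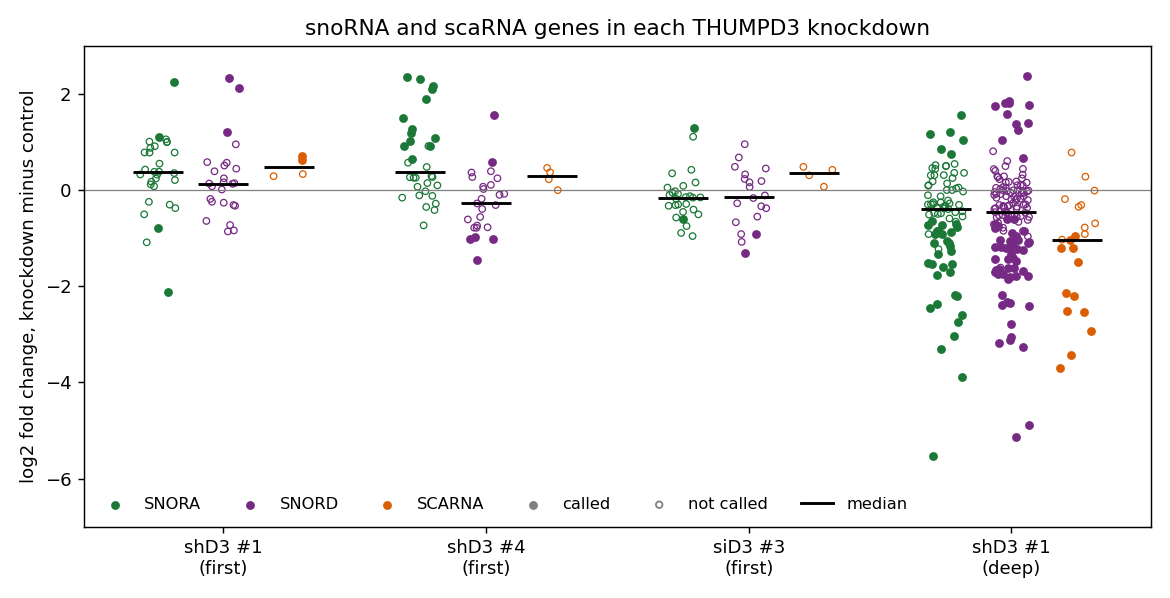
Log2 fold change (knockdown minus control, y axis) of each tested member in the 4 comparisons, split into SNORA, SNORD and SCARNA genes, with filled points for called members and black bars for medians. The median of the SNORA genes lies at 0.39 and that of the SNORD genes at -0.28 in shD3 #4, and the SCARNA median at -1.04 in the deep libraries.

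In shD3 #1, 7 of 59 members rose (11.9%) and 2 fell (3.39%), where 14.3% of all genes tested were called higher and 14.6% lower. The median log2 fold change of the members was 0.32, against -0.01 for all genes. Libraries of the 2 groups did not overlap for 10 members (16.9%), where this held for 61.8% of all genes tested. By class, 2 of 30 SNORA genes rose and 2 fell, 3 of 25 SNORD genes rose and none fell, and 2 of 4 SCARNA genes rose. The medians were 0.37, 0.14 and 0.48, and the classes were not tested against each other. For the SNORD genes, 6 of 25 had an unadjusted p under 0.05. Of the 55 members with 10 counts in both groups, 6 were higher and 1 lower.

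The largest fitted rises rest on 1 library. SNORD15B stood at 3.00, 1.56 and 2.06 CPM in the controls and at 3.82, 1.65 and 34.1 CPM in shD3 #1 (log2 fold change 2.34 ± 0.78 SE, adjusted p = 0.0184 by edgeR). Replicate 3 alone was high, and the groups overlapped. SNORA22 stood at 0.570, 0.289 and 0.503 CPM and at 0.805, 0.586 and 6.75 CPM (log2 fold change 2.26 ± 0.77, adjusted p = 0.0210). Its first 2 knockdown libraries were barely above the controls. Replicate 3 had the fewest counts of the first libraries and was the highest of its group for 42 of 59 members. Its SNORA genes summed to 270.7 CPM (here without TMM scaling), against 103.5 and 81.2 in the other shD3 #1 libraries and 64.4 to 105.0 in sh1Control. Of 8 other short structured RNAs tested there, RNU4-1, RNU4-2, RNU5A-1 and VTRNA1-3 rose and none fell by edgeR (median log2 fold change 0.92). Over all genes tested 14.3% were called higher and 14.6% lower. RNU4-2, a spliceosomal snRNA, had 19.2 ± 8.60 CPM in the controls and 145.3 ± 209 CPM in the knockdown (SD, n = 3 each). The part of short RNA recovery in these results was not tested.

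Without that library, 3 members were called higher (SNORD114-20, SCARNA5 and SNORA14B) and 6 lower (SNORA11F, SNORA59B, 1 SNORA72 copy, SNORD11, SNORD13 and SNORD70). SNORD114-21 was then no longer tested, since fewer than 3 libraries held 10 counts. The counts called higher and lower were 4 and 1 without sh1Control replicate 2, and 16 and 1 without shD3 #1 replicate 2, and none were lower without sh1Control replicate 1.

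Other members that rose were SCARNA5, SCARNA6 and a pair from the chromosome 14 cluster. SCARNA5, in which both C/D box letters were found, had 24.1, 15.9 and 27.1 CPM in the controls and 35.7, 33.1 and 34.8 CPM in shD3 #1 (log2 fold change 0.62 ± 0.13, adjusted p = 0.000826). SCARNA6, its neighbour in the same host, had 5.70, 3.70 and 6.39 CPM against 7.31, 7.08 and 12.99 CPM (0.72 ± 0.22, adjusted p = 0.0110). In both, every knockdown library lay above every control, with replicate 3 the highest for SCARNA6. Without that replicate SCARNA6 had a log2 fold change of 0.44 and was not called, and without sh1Control replicate 2 neither of these scaRNAs was called. Their host ATG16L1 had a log2 fold change of -0.36 (adjusted p = 0.00117). SNORD114-20 had 1.04, 0.926 and 0.755 CPM against 2.15, 2.50 and 1.33 CPM (1.1998 ± 0.28, adjusted p = 0.00162). SNORD114-21 had 0.466, 0.174 and 0.402 CPM against 2.01, 1.17 and 1.64 CPM (2.13 ± 0.37, adjusted p = 0.000135), and it passed the filter only through the knockdown. SNORA80B, an H/ACA gene in ODC1, rose with overlapping groups (1.11 ± 0.43, adjusted p = 0.0368).

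The fallers were SNORA59B and SNORA11F. SNORA59B fell from 0.984, 0.810 and 0.704 CPM to 0.201, 0.107 and 0.307 CPM (log2 fold change -2.13 ± 0.45, adjusted p = 0.000810), with its host SLC47A1 at -1.13. The gene is annotated with 701 bases, far longer than an H/ACA RNA, and passed the filter only through the controls. SNORA11F had 1.61, 1.33 and 1.06 CPM against 0.738, 0.639 and 1.02 CPM (-0.79 ± 0.31, adjusted p = 0.0369), a call that DESeq2 did not make (adjusted p = 0.133).

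In shD3 #4, 15 of 61 members rose (24.6%) and 4 fell (6.56%), where 8.00% of all genes tested were called higher and 4.51% lower. The rises were nearly all H/ACA genes: 13 of 32 SNORA genes rose (40.6%) and none fell, with 14 at an unadjusted p under 0.05 and a median log2 fold change of 0.39. Of 25 SNORD genes, 2 rose and 4 fell (median -0.28), and the 4 SCARNA genes were not called (median 0.30), though 3 had an unadjusted p under 0.05. Length moved with this split. The 16 SNORD genes under 100 bases had a median of -0.33, with 3 lower, while at 100 to 150 bases the medians were 0.32 for 4 SNORD genes and 0.27 for 25 SNORA genes. The 7 SNORA genes over 150 bases had 1.01, with 5 higher. By class, 4 SNORA and 3 SNORD genes reached 10 counts in only 1 group, and so could pass only by differing. All 4 of these SNORA genes rose, and 2 of these SNORD genes fell. The split between the classes was not tested without them. Of the 54 members of any class with 10 counts in both groups, 11 were higher and 2 lower. DESeq2 called 15 members higher and 2 lower. Groups did not overlap for 24 members (39.3%), against 49.2% of all genes tested. Leaving out shD3 #4 replicate 2 left 9 members called higher, and 2 were called lower without sh4Control replicate 1, sh4Control replicate 3 or shD3 #4 replicate 3.

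SNORA47 rose most, from 0.479, 0.572 and 0.526 CPM to 1.09, 4.58 and 2.696 CPM (log2 fold change 2.35 ± 0.39, adjusted p = 2.83e-05). SNORA49 rose from 0.160, 0.239 and 0.421 CPM to 1.09, 1.32 and 1.78 CPM (2.31 ± 0.37, adjusted p = 1.66e-05). In both, the lowest knockdown library was above the highest control, but SNORA49 passed the filter only through the knockdown. SNORA22C (2.18), SNORA7B (2.11) and SNORA22 (1.90) followed on the log2 scale, and these have near copies, SNORA7B sharing 98.6% of positions with SNORA7A, so that reads may be divided or dropped among them. SNORA22 itself had 0.373, 0.859 and 0.894 CPM against 1.70, 4.18 and 2.30 CPM (adjusted p = 3.58e-05).

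Among the more abundant H/ACA genes, SNORA73B had 41.5, 47.1 and 56.6 CPM in sh4Control and 77.95, 139.4 and 112.4 CPM in shD3 #4 (log2 fold change 1.18 ± 0.13, adjusted p = 3.92e-08). RCC1, the nucleotide exchange factor of Ran, had -0.43. It was taken as the host by position, and a non-coding gene at the same place would have been passed over. SNORA53 had 4.52, 5.53 and 6.73 CPM against 8.84, 16.2 and 11.1 CPM (1.09 ± 0.17, adjusted p = 7.60e-06), and SNORA12, with 10.0, 11.2 and 12.9 CPM against 13.1, 22.8 and 18.4 CPM, had 0.66 ± 0.13 (adjusted p = 0.000280). These genes did not overlap between groups. The other H/ACA genes that rose were SNORA5A, SNORA23, SNORA74B, SNORA74A and SNORA79B, with log2 fold changes of 0.92 to 1.504. SNORA5A, SNORA7B and SNORA22C, like SNORA49, reached 10 counts only in the knockdown.

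SNORD15B was the C/D gene that rose most, from 2.98, 4.25 and 4.16 CPM to 7.66, 14.4 and 12.1 CPM (log2 fold change 1.56 ± 0.18, adjusted p = 8.81e-08), here in each of the 3 libraries. SNORD17, among the richest C/D genes, rose from 37.95, 29.7 and 42.1 CPM to 42.9, 58.0 and 64.9 CPM (0.59 ± 0.11, adjusted p = 0.000117). The 4 that fell were SNORD114-20 (-1.45 ± 0.36, adjusted p = 0.00181), SNORD83A (-1.02 ± 0.35, adjusted p = 0.0213), SNORD93 (-1.01 ± 0.35, adjusted p = 0.0218) and SNORD46 (-0.98 ± 0.30, adjusted p = 0.0104). SNORD114-20 went from 1.01, 0.859 and 0.947 CPM to 0.284, 0.401 and 0.344 CPM. SNORD114-20, SNORD83A and SNORD93 had hosts that fell too, by edgeR log2 fold changes of -1.01 (MEG8), -0.59 (RPL3) and -0.72 (SNHG26). SNORD93 and SNORD114-20 passed the filter only through the controls.

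Other short structured RNAs stood beside these rises. Of 25 genes listed, 6 were tested in shD3 #4 and 3 rose: RNU4-2 (23.2 ± 8.35 SD to 115.3 ± 30.2 CPM, n = 3 each, log2 fold change 2.31), RNU4-1 (2.10) and the vault RNA VTRNA1-3 (0.98). None fell, where 8.00% of all genes tested were called higher and 4.51% lower. RN7SL1, the RNA of the signal recognition particle, had -0.01. Summed over 24 of the listed genes, the level was 11220 to 14350 CPM in sh4Control and 10150 to 13960 CPM in shD3 #4, so the sums overlapped. RN7SL1 made up nearly all of these sums, with TMM-scaled means of 12640 CPM in sh4Control and 12600 CPM in shD3 #4. The sums therefore say little about RNU4-1, RNU4-2 and VTRNA1-3. The part of the other short structured RNAs in the result was not tested.

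**Figure D2:**
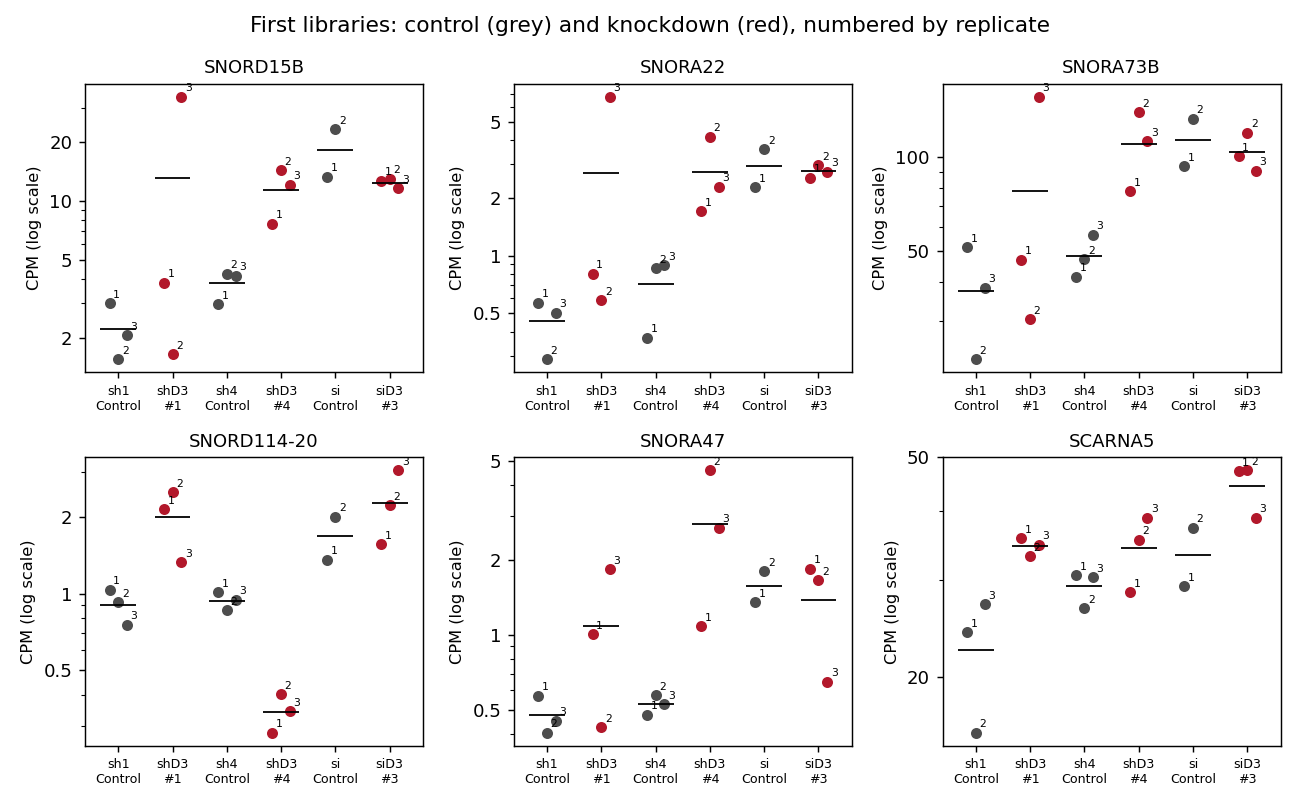
Level in CPM (log scale, normalised within each comparison) of 6 members in every first library in which they were tested, controls in grey and knockdowns in red, numbered by replicate, with black bars at group means. In shD3 #1 replicate 3 stands above the others for SNORD15B (34.1 CPM), SNORA22 and SNORA73B, whereas in shD3 #4 every library lies above its controls for these genes and below them for SNORD114-20.

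In siD3 #3, 1 of 52 members rose (1.92%) and 3 fell (5.77%), where 12.9% of all genes tested were called higher and 9.40% lower. The members' median was -0.14 and that of all genes 0.02. Non-overlapping groups numbered 19 of 52 (36.5%), against 60.7% of all genes tested, with 12 of them below the controls. SNORA and SNORD medians were close, at -0.15 and -0.14, and the 4 SCARNA genes, none called by edgeR or DESeq2, had 0.36, with 2 at an unadjusted p under 0.05.

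SNORA5C, an H/ACA gene in TBRG4, rose from 0.651 and 0.623 CPM to 1.09, 1.94 and 1.70 CPM (log2 fold change 1.29 ± 0.37, adjusted p = 0.0321). SNORD91B fell from 1.09 and 1.25 CPM to 0.284, 0.514 and 0.600 CPM (-1.32 ± 0.38, adjusted p = 0.0321). SNORD4A fell from 2.71 and 2.77 CPM to 1.56, 1.14 and 1.65 CPM (-0.91 ± 0.25, adjusted p = 0.0273). SNORA74D fell from 4.23 and 4.22 CPM to 2.51, 2.97 and 2.95 CPM (-0.59 ± 0.19, adjusted p = 0.0492). DESeq2 made none of these 4 calls, at adjusted p of 0.0566, 0.0901, 0.0501 and 0.102, and 12 members had an unadjusted p under 0.05 in edgeR. The count called lower dropped to 0 without siControl replicate 2, siD3 #3 replicate 1 or siD3 #3 replicate 2. The count called higher was 0 without siControl replicate 1 or siD3 #3 replicate 2, 3 without siControl replicate 2 and 2 without siD3 #3 replicate 3. SNORD15B, at 13.3 and 23.3 CPM against 12.7, 12.97 and 11.6 CPM, was not called (-0.55, adjusted p = 0.0921). Its 2 controls differed widely, and siControl replicate 2 was the higher of the pair for 41 of 52 members.

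In deep shD3 #1, 18 of 254 members rose (7.09%) and 95 fell (37.4%), where 14.8% of all genes tested were called higher and 14.2% lower. The median log2 fold change was -0.47 over the members and -0.02 over all genes, and 190 of 254 members had a value below 0. Groups did not overlap for 133 members (52.4%, 110 of them below the controls), against 66.8% of all genes tested. The falls were shared by the classes: 32 of 87 SNORA genes (36.8%, median -0.39), 51 of 145 SNORD genes (35.2%, median -0.45) and 12 of 22 SCARNA genes (54.5%, median -1.04). Restricted to the 212 members with 10 counts in both groups, 17 were higher and 64 lower, with a median of -0.33. Called lower were 55 members without sh1Control replicate 1 and 56 without replicate 2, when 207 and 206 members remained to be tested.

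Of the classes the scaRNAs had the lowest median, a difference that was not tested and that moved with length. Over 150 bases 9 of 11 SCARNA genes fell (median -1.50), and at 100 to 150 bases 3 of 11 fell (median -0.69), beside 10 of 23 SNORD genes of that length (median -0.71). SCARNA12 went from 29.2, 30.3 and 26.2 CPM to 1.05, 1.07 and 5.35 CPM (log2 fold change -3.43 ± 0.31, adjusted p = 1.92e-07). SCARNA21 went from 8.84, 8.79 and 7.33 CPM to 0.229, 0.477 and 1.11 CPM (-3.70 ± 0.26, adjusted p = 1.08e-08), or 7.69% of its control (95% interval 5.84 to 9.96%, counting error only). SCARNA10, the most abundant of those that fell, went from 59.5, 52.0 and 59.1 CPM to 4.97, 5.25 and 18.7 CPM (log2 fold change -2.51 ± 0.30, adjusted p = 4.09e-06). In these 3 genes replicate 3 of the knockdown was the least reduced, though still below every control.

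SCARNA5 had 18.7, 17.8 and 15.1 CPM against 1.93, 2.50 and 4.30 CPM (-2.53 ± 0.18, adjusted p = 1.36e-08), and SCARNA7 had 30.8, 31.1 and 27.0 CPM against 3.17, 4.11 and 11.5 CPM (-2.19 ± 0.27, adjusted p = 4.74e-06). SCARNA28, SCARNA22, SCARNA9L, SCARNA17, SCARNA4, SCARNA9 and SCARNA6 made up the 12, with log2 fold changes of -2.94 to -0.95. SCARNA28 and SCARNA22 reached 10 counts only in the controls. The other 10 scaRNA genes ranged from -1.03 to 0.78. Among them SCARNA2, the highest scaRNA per length and one made from its own promoter, differed little, at 124.9 ± 5.56 CPM against 109.6 ± 13.0 CPM (SD, n = 3 each, log2 fold change -0.19). Without deep shD3 #1 replicate 3, 12 of 22 SCARNA genes were again called lower, as were 93 members in all, and 13 were called higher.

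**Figure D3:**
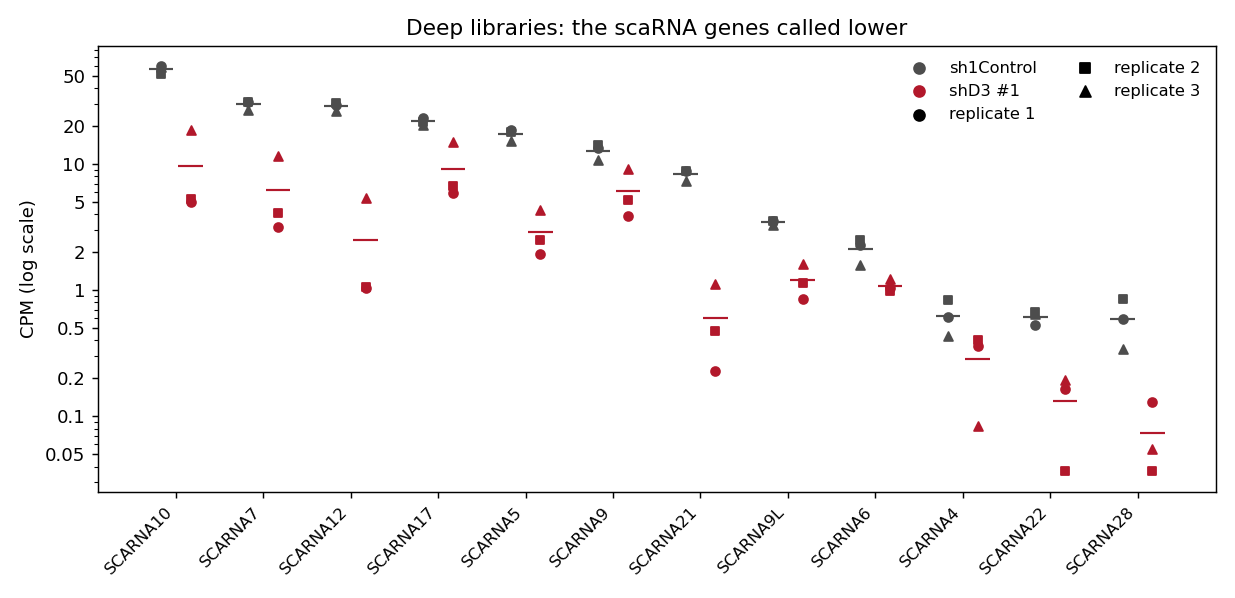
Level in CPM (log scale) of the 12 SCARNA genes called lower, in each deep library, sh1Control in grey and shD3 #1 in red, with circles, squares and triangles for replicates 1, 2 and 3 and bars at group means. For SCARNA12 the knockdown libraries stand at 1.05, 1.07 and 5.35 CPM, all below the lowest control at 26.2 CPM.

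Of the H/ACA genes, SNORA64 had the largest fitted fall: 37, 32 and 34 counts in the controls and 0, 0 and 1 in the knockdown. Pooled, the knockdown was at 1.71% of the control, with a 95% interval of 0.0428 to 9.73% from exact binomial counting. SNORA63 had 45, 44 and 21 counts against 3, 0 and 1 (6.39%, interval 1.71 to 16.8%). Both could pass the filter only through the controls. Better measured was the pair SNORA73A and SNORA73B, both placed in RCC1 by position, whose sequences share 93.2% of positions. SNORA73B went from 18.9, 18.9 and 13.6 CPM to 2.78, 2.50 and 3.11 CPM (log2 fold change -2.61 ± 0.14, adjusted p = 8.80e-10). SNORA73A went from 6.44, 7.76 and 5.53 CPM to 0.719, 0.771 and 1.39 CPM (-2.73 ± 0.21, adjusted p = 3.21e-08). SNORA12 fell from 1.82, 2.10 and 1.73 CPM to 0.327, 0.294 and 0.583 CPM (-2.18 ± 0.26, adjusted p = 4.39e-06). In each of these 3 genes the groups stood far apart.

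Of the C/D genes, SNORD88B had 87, 70 and 65 counts against 2, 0 and 2 (3.17% of control, interval 0.856 to 8.23%), and SNORD30 had 26, 35 and 16 counts against 0, 0 and 1 (2.28%, interval 0.0571 to 13.1%). These 2 also passed only through the controls. SNORD17 fell from 18.2, 17.7 and 16.7 CPM to 7.71, 6.50 and 8.55 CPM (-1.199 ± 0.09, adjusted p = 2.84e-08), with all 3 knockdown libraries close together. SNORD15B fell from 1.92, 1.72 and 1.26 CPM to 0.360, 0.551 and 0.583 CPM (-1.70 ± 0.27, adjusted p = 6.17e-05).

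The 18 members that rose were low, with SNORA104 the exception at 23.1 ± 0.473 CPM in the controls and 42.1 ± 8.64 CPM in the knockdown (SD, n = 3 each, log2 fold change 0.87 ± 0.11, adjusted p = 5.88e-06). The 5 largest were SNORD3D (2.37 ± 0.36), SNORD56B (1.86 ± 0.45), SNORD114-20 (1.82 ± 0.30), SNORD13E (1.82 ± 0.28) and SNORD164 (1.77 ± 0.22). SNORD114-20 went from 0.204, 0.336 and 0.396 CPM to 1.24, 1.07 and 0.999 CPM, above every control (adjusted p = 0.000107), and SNORD164 from 0.560, 0.455 and 0.486 CPM to 1.86, 1.65 and 1.64 CPM (adjusted p = 7.24e-06). SNORD3D belongs to the U3 genes, whose near-identical copies share reads, and it went from 9, 5 and 9 counts to 21, 17 and 31, reaching 10 counts only in the knockdown.

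Among the 15 listed snoRNAs that act in pre-rRNA processing, 11 were tested in the deep libraries, with a median of -1.19. There 8 fell, and SNORD3D, which passed the filter only through the knockdown, rose. Over all members tested there 37.4% were called lower and 7.09% higher, and over all genes 14.2% and 14.8%. SNORD3A fell from 1.48, 1.46 and 1.24 CPM to 0.588, 0.661 and 0.583 CPM (-1.19 ± 0.23, adjusted p = 0.000367), at a level far under the 83.4 to 685.2 CPM of the first controls, where its counted gene was longer. SNORD13, which takes part in small subunit processing, had 29, 33 and 20 counts against 0, 0 and 5 (-3.17 ± 0.67, adjusted p = 0.000844), and passed the filter only through the controls. SNORD14E, SNORD22, SNORD14B and SNORD14A fell as well, by 2.39 to 0.60 on the log2 scale (SNORD14E and SNORD22 also reached 10 counts only in the controls), and SNORD3B-1 and SNORD3B-2 were not called. Of the same list, 7 were tested in shD3 #1, at log2 fold changes of -0.26 to 0.9974 and not called, 7 in shD3 #4, where SNORA73B rose, and 6 in siD3 #3, at -0.38 to 0.49 and not called. SNORD3A had 191.0, 83.4 and 146.4 CPM in sh1Control and 183.0, 90.2 and 552.0 CPM in shD3 #1 (0.95, adjusted p = 0.0710), replicate 3 again standing apart.

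Length and level moved with the deep falls. The median log2 fold change was -0.37 for the 114 members under 100 bases, -0.46 for the 103 of 100 to 150 bases and -0.95 for the 37 longer ones. Of the 15 members at 5 CPM or more in the controls, 13 fell (median -1.74), and of the 163 under 1 CPM, 41 fell (median -0.31). The other short structured RNAs fell too, 11 of the 11 tested, with a median of -2.12 and values of -4.63 (RNU4-1) to -0.59 (TERC, the telomerase RNA). Over all genes tested 14.2% were called lower. RNU5A-1, VTRNA1-3 and RNU1-1 had only 0.086, 0.103 and 0.1755 CPM in the knockdown, so their passing of the filter rested mainly on the controls. RMRP, the RNA of RNase MRP, went from 10870 ± 570 to 1531 ± 1490 CPM, and RN7SK, which restrains transcription elongation, from 5435 ± 284 to 1247 ± 859 CPM (SD, n = 3 each). The sum of 24 listed genes was 19150 to 21080 CPM in the controls and 1517, 2260 and 6965 in the knockdown, with the highest value in replicate 3, as for the scaRNAs. The deep knockdown libraries also held 27285889 to 35458367 counts, against 51101905 or more in the controls. The part of short RNA recovery in these falls was not tested.

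**Figure D4:**
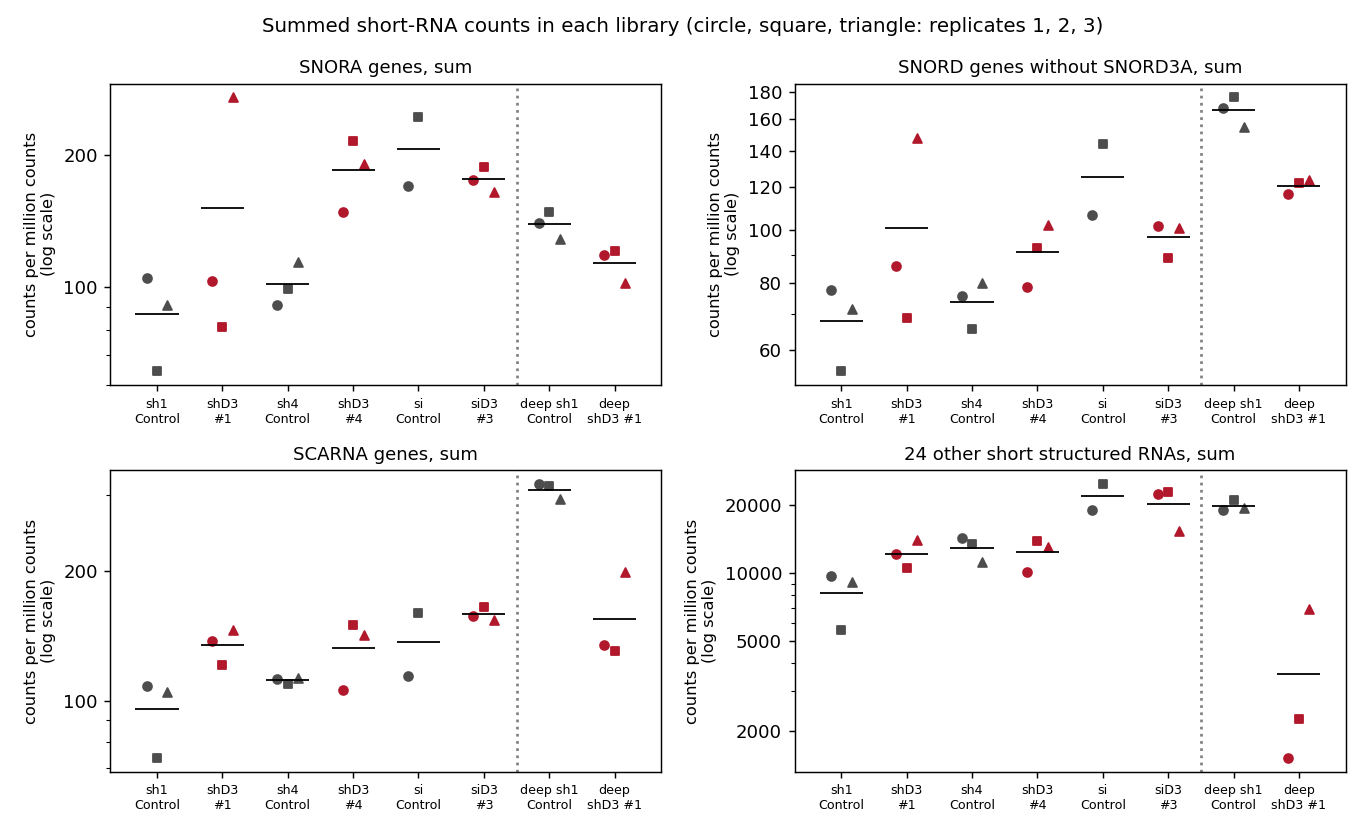
CPM without TMM scaling (log scale) summed over SNORA, SNORD without SNORD3A, SCARNA and 24 other short structured RNA genes in each library, controls in grey and knockdowns in red, with circle, square and triangle for replicates 1, 2 and 3. The deep shD3 #1 libraries stand below the deep controls in all 4 panels, at 1517 to 6965 against 19150 to 21080 for the other short RNAs, whereas in the first libraries shD3 #1 replicate 3 is the highest of the SNORA panel at 270.7. In the first libraries RN7SL1 makes up most of the sum of the other short RNAs.

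The same shRNA, shD3 #1, was thus measured in separate libraries of both tables, and 52 members were tested in each. In the first libraries 6 of these rose and 2 fell (median log2 fold change 0.31), and in the deep ones 2 rose and 28 fell (median -0.85). SNORD114-20 and SNORA80B rose in both. SCARNA5, SCARNA6, SNORA22 and SNORD15B rose in the first and fell in the deep libraries. Another 26 members had values above 0 in the first and below 0 in the deep libraries without being called in both, making 30 in all, and 2 had the opposite pattern. Without shD3 #1 replicate 3, the median in the first libraries was 0.02 over the 56 members then tested. Of the members named here, only SNORD114-20 and SCARNA5 were then called higher. With all libraries, SCARNA5 had a log2 fold change of 0.62 ± 0.13 in the first set and -2.53 ± 0.18 in the deep set, with no overlap between groups in either. The tables were counted and normalised separately, so that this difference was not tested.

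**Figure D5:**
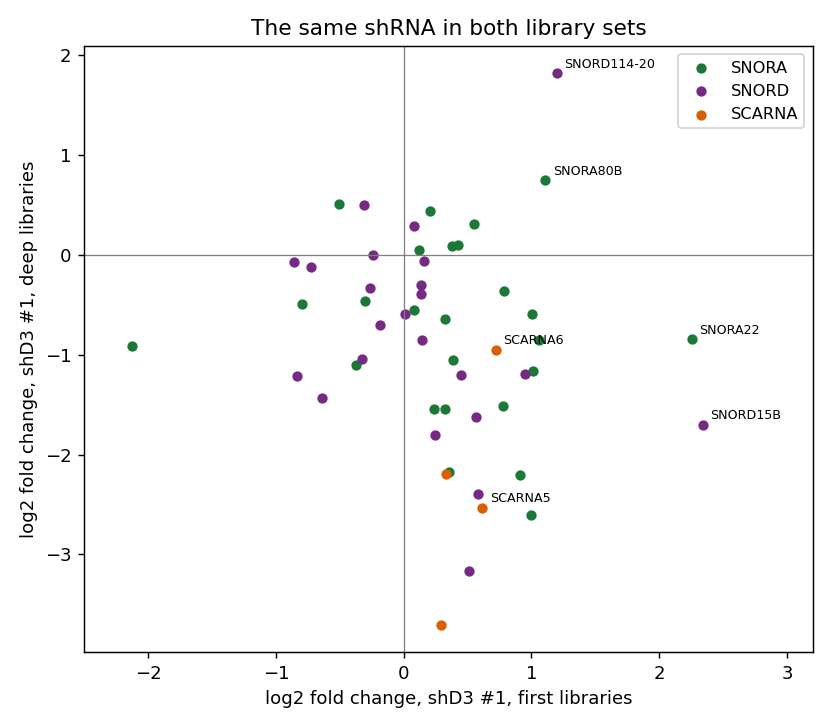
Log2 fold change of the 52 members tested in both library sets of shD3 #1, the first libraries on the x axis and the deep ones on the y axis, coloured by class, with names for members called in both. Most points lie below 0 on the y axis and above 0 on the x axis (30 of 52), and SNORD114-20 and SNORA80B lie above 0 on both.

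Responses of the 3 first knockdowns were compared in 1 model of 17 libraries. Of 74 members tested there, 9 differed between knockdowns (12.2%), where 53.6% of all genes tested did. They were 5 of 34 SNORA genes and 4 of 34 SNORD genes. None of 6 SCARNA genes differed by this edgeR test, and none had an unadjusted p under 0.05. DESeq2 found 5 members that differed, and the count was 15 without shD3 #1 replicate 3, 17 without shD3 #1 replicate 2, 5 without shD3 #4 replicate 3 and 3 without siControl replicate 2.

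SNORD114-20 had the smallest adjusted p (0.000450 by edgeR), and was the only member called in opposite directions among the first knockdowns. Its log2 fold change was 2.63 lower in shD3 #4 than in shD3 #1 (adjusted p = 0.000189). In siD3 #3 it had 1.36 and 2.01 CPM against 1.56, 2.23 and 3.05 CPM and was not called (0.45, adjusted p = 0.361). Its host MEG8, a long non-coding RNA of the imprinted DLK1-MEG3 region, moved likewise, at 1.65 in shD3 #1 (adjusted p = 2.67e-09), -1.01 in shD3 #4 (adjusted p = 3.96e-06), 0.78 in siD3 #3 (adjusted p = 0.140) and 1.51 in deep shD3 #1 (adjusted p = 2.55e-08). SNORD114-21 and SNORD113-3, from the same cluster, also differed between knockdowns. SNORD113-3 had 0, 3 and 1 counts in sh1Control and 15, 13 and 8 in shD3 #1, but 4, 1 and 0 in sh4Control and 1 in each shD3 #4 library. It reached 10 counts in 3 of the 17 libraries, all knockdowns, and so passed the filter only where it was high.

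Of the imprinted C/D families, 2 of 30 SNORD114 genes were tested in shD3 #1 and both rose. In shD3 #4, 1 was tested and fell. Of the 2 that rose, 1 passed the filter only through the knockdown, and the gene that fell passed only through the controls. Such genes could be tested there only by differing, so these counts say little about the family. In siD3 #3, 2 SNORD114 genes were tested at log2 fold changes of 0.33 and 0.45 and not called, and in the deep libraries 1 of 2 rose. Over all genes tested, 14.3% were called higher in shD3 #1, 4.51% lower in shD3 #4 and 14.8% higher in the deep libraries. Of the SNORD116 genes in SNHG14, none was tested in the first libraries, where 28 of 33 had no count, but 17 of 30 were in the deep ones, where 2 rose and 2 fell (log2 fold changes of -1.43 to 1.37). The SNORD115 family was not tested in any comparison, with 37 of 50 genes at 0 in the first and 47 of 48 in the deep libraries. In comparisons with their own controls, 1 gene of the SNORD113 family was tested, in the deep libraries (0.27).

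Most members that were called had a host that was not, but most hosts tested were not called in any case. In the deep libraries a host tested alongside was found for 181 members, over 113 hosts, of which 5 were called higher and 18 lower (median log2 fold change -0.20). Of the 75 members called there, 12 had a host called in the same direction, 1 in the opposite, and 62 a host that was not called. Over all genes tested 14.8% were called higher and 14.2% lower, so these counts do not show that members moved apart from their hosts. The median of the member's log2 fold change minus its host's was -0.24. In the first libraries this median was 0.36 (shD3 #1), 0.27 (shD3 #4) and 0.06 (siD3 #3). Across members, fold changes of member and host had r = 0.313 in the deep libraries (n = 181), and 0.429, 0.392 and 0.219 in shD3 #1, shD3 #4 and siD3 #3 (n = 52, 54 and 45). These are descriptions, since members share hosts and libraries and host intron reads can be counted on a snoRNA.

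By kind of host, 21 of 41 members in ribosomal protein genes fell in the deep libraries (median -0.70) and 37 of 105 in other protein-coding genes fell (median -0.46). In non-coding genes 15 of 48 fell (median -0.38), and of members with no host found 22 of 60 fell (median -0.42). Hosts of deep members were matched by symbol. A symbol carried by several annotated genes, or by none, therefore counted as no host found. SNORD30, which lies in SNHG1, is such a case, so this class also holds members that have a host. Over all members tested 37.4% were called lower, and over all genes tested 14.2%. The kinds of host were not tested against each other. Where several genes contained a member, a protein-coding one was taken before a non-coding one, so non-coding hosts may be undercounted. In EIF4A1 3 of 3 fell, while the 4 in NOP58, itself a C/D core protein gene, ranged from -0.71 to -0.07 and were not called. Of 18 members in SNHG14, the median was -0.01. No host was matched in this way for SNORA104, SNORD164 and 58 other members.

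Among the mRNAs of the core snoRNA proteins, FBL, which encodes fibrillarin, fell in all 4 comparisons. Its log2 fold change was -0.62 (shD3 #1), -0.77 (shD3 #4), -1.04 (siD3 #3) and -0.82 (deep shD3 #1). Of the other C/D core genes, NOP56 and NOP58 were called lower in siD3 #3, and SNU13 was called in none. Elsewhere NOP56 and NOP58 missed only the fold threshold, at -0.43 to -0.19 (edgeR adjusted p of 0.0217 or less). SNU13 had 0.14 in shD3 #1 and -0.55 to -0.32 in the other comparisons. Of the H/ACA core genes, DKC1 (dyskerin) fell in siD3 #3 (-0.87) and NOP10 in deep shD3 #1 (-1.002), while NHP2 and GAR1 were not called. Elsewhere DKC1 missed only the fold threshold, at -0.50 to -0.39 (edgeR adjusted p of 5.84e-05 or less). So did NHP2 outside shD3 #1, at -0.57 to -0.37 (adjusted p of 0.00397 or less). Among 17 assembly and processing factors, 3, 1, 5 and 2 fell in shD3 #1, shD3 #4, siD3 #3 and deep shD3 #1, where 16 were tested. Over all genes 14.6%, 4.51%, 9.40% and 14.2% were called lower in these comparisons, so the counts stand near the background in all but siD3 #3. TENT4B, an adenylating enzyme that acts with PARN on H/ACA RNA ends, rose in the deep libraries (0.65), and had 0.49 in the first shD3 #1 libraries, short of the fold threshold. The 4 U3 particle proteins were not called by edgeR in any comparison, with medians of -0.33 to 0.21.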

How the data were processed

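Total RNA was extracted with RNeasy Mini columns, depleted of ribosomal RNA (Ribo-Zero) and made into directional NEXTFLEX libraries. The authors trimmed reads with Trimmomatic 0.40, aligned them to GRCh38.p14 with STAR 2.7.10a, and deposited raw counts per gene in 2 tables. The methods name a RefSeq annotation, while the first table carries Ensembl identifiers, so its positions, hosts and sequences were taken from GENCODE 44. The members and lists were chosen with earlier results of these data known. Genes with at least 10 counts in at least 3 libraries of a comparison were fitted with edgeR 4.0.16 (quasi-likelihood test, TMM, Benjamini-Hochberg over all genes tested, R 4.3.3). DESeq2 1.42.0, other filters, other scalings, a replicate block and leaving out each library were the alternatives. The edgeR steps were tested on simulated counts.

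Members were named where they were among the 5 largest calls in each direction with non-overlapping groups, or were called repeatedly or in opposite directions. Also named were the 3 richest per length in each class, the listed rRNA-processing snoRNAs and every called scaRNA. SCARNA2, SNORA104, the members named under hosts and any others outside these rules were added after their values were seen. Intervals on count ratios are exact binomial and cover counting error only. Reads were counted without molecular identifiers.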

Additional observations from a re-analysis of the deposited data

Results flagged for a closer look

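Across the 3 knockdowns of the first libraries, 9 of 74 members responded differently by edgeR's interaction test (adjusted p under 0.05). Among them SNORD114-20 had the smallest adjusted p (0.000450), with a log2 fold change 2.63 lower in shD3 #4 than in shD3 #1 and 1.91 higher in siD3 #3 than in shD3 #4. SNORD113-3 (adjusted p = 0.00874) and SNORD114-21 (adjusted p = 0.0353), of the same chromosome 14 cluster, were also lower in shD3 #4 than in shD3 #1, by differences of -4.03 and -2.29. SNORD113-3 reached 10 counts in only 3 of the 17 libraries, all knockdowns, so that it passed the filter only where it was high, and its test is no support for the others. SNORD15B (adjusted p = 0.0243) was lower in siD3 #3 than in shD3 #1 (-2.91), a difference that rests on 1 high library of shD3 #1. Of the H/ACA genes, SNORA74D (adjusted p = 0.00759), SNORA47 (adjusted p = 0.0187), SNORA22B (adjusted p = 0.0354), SNORA74A (adjusted p = 0.0374) and SNORA49 (adjusted p = 0.0496) had lower log2 fold changes in siD3 #3 than in shD3 #4, by differences of -0.86 to -2.53. That pairwise difference itself missed the threshold for SNORA49 (adjusted p = 0.0834). Delivery, induction by doxycycline and harvest day differ between siRNA and shRNA and cannot be told apart from the targeting sequence in these differences.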

How the results depend on the processing

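Of 50 calls on named members that were followed, 34 were kept under every alternative in which the member could be tested. The other 16 were lost under at least 1, with no change of sign. Calls on SNORD15B, SNORA80B, SNORA53, SNORA12, SNORD17 and SNORA104 were not among the 50. Low members, SNORD114-21, SNORA59B, SNORA64 and SNORD13 among them, dropped out under some alternatives and were tested under 11 or 12. DESeq2's size factors and TMM factors from protein-coding genes moved no count by over 1.5 times. Members higher and lower in shD3 #1 numbered 22 and 4 with no filter beyond 1 count, and 4 and 1 with 10 counts required in every library, which tests fewer genes. The last filter gave 9 and 0 in shD3 #4, 0 and 1 in siD3 #3, and 11 and 45 in the deep libraries. DESeq2 called 1 member lower in shD3 #1, 2 lower in shD3 #4, 0 higher and 0 lower in siD3 #3, and found 5 that differed between knockdowns. That last count was 21 with no filter beyond 1 count. With 1 fit of all 17 libraries, 11 were higher in shD3 #1 and 9 lower in siD3 #3. A log2 threshold of 1 left 1 lower in shD3 #1 and 1 lower in siD3 #3, no fold threshold gave 2 higher in siD3 #3, and filterByExpr gave 5 lower there. Except where the filter's own construction shows it, the cause was not tested.

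Leaving out each library in turn gave 3 to 16 higher and 0 to 6 lower in shD3 #1, 9 to 17 and 2 to 4 in shD3 #4, 0 to 3 and 0 to 4 in siD3 #3, 13 to 16 and 55 to 93 in the deep libraries, and 3 to 17 differing between knockdowns. Where 1 siControl library remained, it was assumed to vary like the knockdown libraries.

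With the replicate number as a block, 15 members were higher and 2 lower in shD3 #1, 15 and 4 in shD3 #4, 2 and 5 in siD3 #3, 16 and 88 in the deep libraries, and 16 differed between knockdowns. In no comparison did every same-numbered pair correlate above 0.1 in its deviations (values of -0.182 to 0.228), so the numbers were not read as pairs. Low counts limit most members, whose median control level was 0.673 to 1.44 CPM.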
